A study of Mus musculus with 45 samples.

Results

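The genes of oxidative phosphorylation were examined in liver RNA of mice given TCDD, the dioxin 2,3,7,8-tetrachlorodibenzo-p-dioxin, which activates the aryl hydrocarbon receptor (AhR). The members were taken by symbol: genes that begin with Nduf, Cox4 to Cox8, Uqcr or Atp5, the 4 Sdh genes, *Cyc1*, and the protein genes of the mitochondrial genome. Of 17464 genes with more than 4 reads in any mouse, 104 were members, 92 of them nuclear-encoded and 12 mitochondrially encoded. They comprised 44 genes of complex I, 8 complex I assembly factors, 4 genes of complex II, 10 of complex III, 19 of complex IV and 19 of complex V. Another 7 genes with matching names had 4 reads or fewer in every mouse, and 7 named as pseudogenes were left out. The prefixes also take in 3 gene copies annotated as processed pseudogenes, *Ndufa11b*, *Ndufs6b* and *Cox6c2*. At the threshold, the members with the fewest reads were *mt-Atp8* and *Atp5g2* (11 reads in the highest mouse), *mt-Nd3* (12) and *Cox6b2* (13). Just outside it were *Cox4i2* and *Cox6a2*, each with 4 reads in the highest mouse.

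Livers came from female C57BL/6 mice, 5 in each of 9 groups. The vehicle group received sesame oil, and the other 8 groups received TCDD in sesame oil by gavage at 0.01 and 0.03, at 0.1 and 0.3, at 1 and 3, and at 10 and 30 µg/kg, a dose every 4 days over 28 days. The labels give no genotype beyond the strain, and the groups differ in dose only. The sample labels also mention ovariectomy and daily dosing, which the published methods do not, and the age at the first dose was postnatal day 28 by those methods. Each mouse had 11767284 to 56509899 reads on genes (median 17225047). Between 5.23 and 8.77% of them fell on the mitochondrial genome and between 6.09 and 9.60% on the members. *Cyp1a1*, the P450 gene most often used to show AhR activation, averaged 7.50 CPM (reads per 1000000 reads on genes, with library sizes scaled by TMM) in the vehicle group and 7627 CPM at 30 µg/kg. Hepatocyte genes dominated every group, with *Alb* at 111474 ± 12425 CPM in the vehicle group (SD, n = 5).

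Oxidative phosphorylation runs on 5 protein complexes of the inner mitochondrial membrane. Complexes I and II take electrons from NADH and succinate, ubiquinone carries them to complex III, and cytochrome c carries them to complex IV, where oxygen is reduced. Complexes I, III and IV pump protons, and the ATP synthase (complex V) uses the gradient. The mitochondrial genome encodes the membrane core of all but complex II, and nuclear genes encode the rest. In hepatocytes the chain is fed largely by fatty acid oxidation.

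Not every mitochondrially encoded gene could be counted. Of its 13 protein genes, 7 averaged from 5944 reads per mouse (*mt-Nd6*) to 331878 (*mt-Co1*), and the other 6 averaged at most 3.96 (*mt-Co3*). The authors' counts exclude multi-mapped reads. Among all windows of 50 bases, the read length, the share that also occurs in another annotated gene was 100% for *mt-Co2*, 99.9% for *mt-Co3*, 99.5% for *mt-Atp6*, 98.8% for *mt-Nd4l* and 98.0% for *mt-Nd3*. Those are the genes with hardly any reads, together with *mt-Atp8*, for which no annotated copy was found in the transcripts searched. The copies lie next to each other as unprocessed pseudogenes on chromosome 1, such as the *mt-Co3* copy *Gm28437* at chr1:24613189-24613971 (GRCm38). The first 50 bases of *mt-Co3*, at chrM:8607-8656 on the plus strand, are printed because they open the identical stretch of 783 bases. All of them are shared with *Gm28437*, so none is set in capitals.
mt-Co3, first window: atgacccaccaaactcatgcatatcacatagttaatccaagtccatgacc
For *mt-Nd4* and *mt-Co1*, 62.2 and 51.1% of windows were shared, so part of each gene was counted. None was shared in *mt-Nd1*, *mt-Nd6* and *mt-Cytb*. Levels and changes of the mitochondrial genome below therefore rest on 7 genes.

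**Figure D1:**
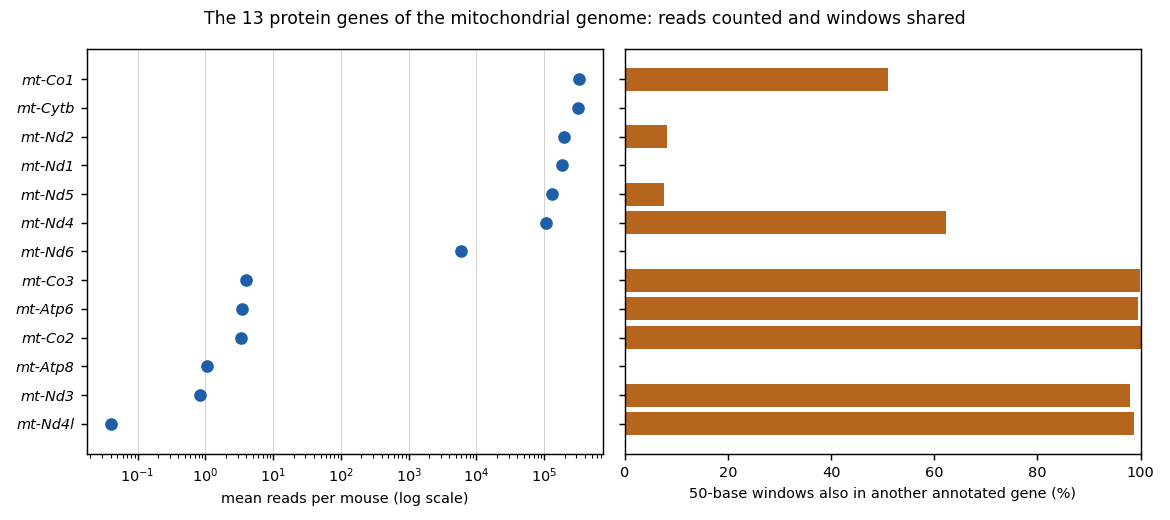
Mean reads per mouse over 45 mice on a log axis (left, points) and the percent of 50-base windows found in another annotated gene (right, bars) for the 13 protein genes of the mitochondrial genome. The 7 genes with at least 5944 reads share at most 62.2% of their windows, and 5 of the 6 genes under 4 reads share at least 98.0%.

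In the vehicle group the mitochondrially encoded messages were the most abundant members per kilobase of exon. *mt-Cytb*, the cytochrome b of complex III, stood at 14531 ± 2471 CPM per kilobase (SD, n = 5), *mt-Co1*, the catalytic subunit of complex IV, at 11260 ± 2327 and *mt-Nd1* at 10083 ± 2661, and their spreads overlapped. *mt-Nd6*, the 1 protein gene on the other strand, was lowest at 734 ± 226 CPM per kilobase. The highest nuclear-encoded members were the α and β subunits of ATP synthase, *Atp5a1* at 343 ± 20.2 CPM per kilobase and *Atp5b* at 298 ± 28.8. Lengths are the union of all annotated exons, so genes with long minor transcripts are understated. Summed over members, the 12 mitochondrially encoded genes held 55070 to 88100 CPM per vehicle mouse and the 92 nuclear-encoded genes held 10843 to 12165 CPM. At 30 µg/kg the sums were 47535 to 61574 CPM and 9969 to 11566 CPM, so both overlapped the vehicle range. The ratio of the 2 sums was 4.94 to 7.37 in vehicle mice and 4.77 to 5.62 at 30 µg/kg, which also overlapped.

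Liver isoforms far exceeded those of other tissues. *Cox4i1* stood at 405 ± 40.1 and *Cox6b1* at 168 ± 17.6 CPM in the vehicle group (SD, n = 5), whereas *Cox4i2*, the isoform best known from lung, and *Cox6a2*, the heart and muscle partner of *Cox6a1*, never exceeded 4 reads. *Cox7a1*, the muscle isoform, ranged from 0.370 to 2.12 CPM in vehicle mice against 138 to 175 CPM for its liver partner *Cox7a2*. *Ndufa4l2*, the hypoxia-induced relative of *Ndufa4*, lay between 1.13 and 2.67 CPM at 30 µg/kg and between 1.37 and 2.35 CPM in vehicle mice, which overlap. *Cox6b2*, the testis isoform, stayed at 0.127 to 0.354 CPM in vehicle mice and 0.0707 to 0.229 CPM at 30 µg/kg. These 3 minor isoforms were not called at any single dose, and the test of any difference among groups called *Cox7a1* (edgeR adjusted p = 0.0254).

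A subset of the members was lower at the highest doses and very few were higher. At 30 µg/kg, 19 nuclear-encoded and 3 mitochondrially encoded members were lower than vehicle and 2 nuclear-encoded members were higher by edgeR's quasi-likelihood test (Benjamini-Hochberg adjusted p under 0.05). That is 20.7% of the nuclear-encoded members lower and 2.17% higher, where 14.1% of all genes were lower and 15.5% were higher. The median log2 fold change was -0.21 over the 92 nuclear-encoded members and -0.30 over the 7 countable mitochondrially encoded ones. It was 0.02 over all genes tested, which here and below include genes with few reads. In other nuclear genes over 5 CPM, grouped by exon length, the medians at 30 µg/kg lay between -0.10 and -0.05. No member called at 30 µg/kg changed by 2-fold or more, which 8.03% of all genes did upward and 3.42% downward. All 5 mice lay below every vehicle mouse for 12 members (9.57% of all genes did so) and above for 2 (10.3% of all genes), and at 10 µg/kg for 9 and 2 (6.13 and 8.1% of all genes). Without scaling beyond the library total, where the median of all genes moved to 0.23, the split became 9 nuclear-encoded members higher and 5 lower, and the nuclear-encoded median was 0.00, still below that of all genes. In bulk liver, fewer cells of a type and less RNA per cell cannot be told apart. Summed leukocyte markers were 40.3 to 71.7 CPM in vehicle mice and 52.2 to 140 CPM at 30 µg/kg, and those of stellate cells and fibroblasts were 61.5 to 98.6 and 90.5 to 224 CPM. Of the 5 hepatocyte markers tested 4 fell, and their sum was 110432 to 143668 CPM and 105154 to 153714 CPM. Of the 8 leukocyte, 4 endothelial and 4 stellate cell or fibroblast markers 4, 3 and 2 rose. The part of cell composition in the members' changes was not tested.

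**Figure D2:**
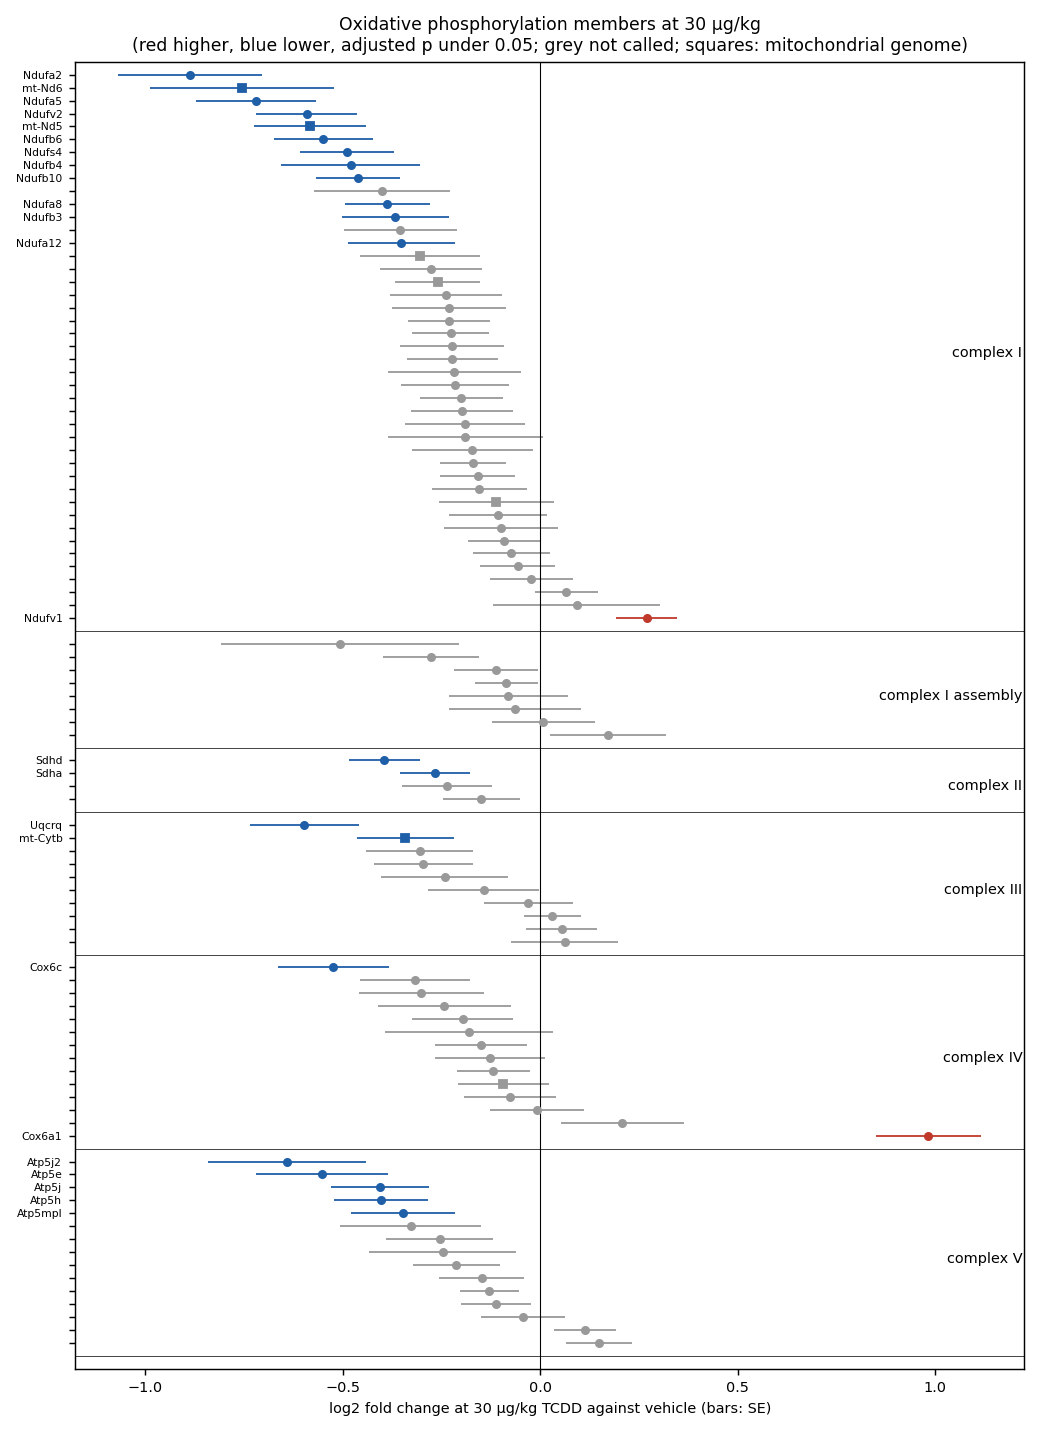
Log2 fold change at 30 µg/kg against vehicle with its standard error for the 94 members with a mean of at least 50 reads, by complex, with names for those called. Of these, 22 lie to the left and 2 to the right with adjusted p under 0.05, and *Cox6a1* stands apart at 0.98.

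The calls accumulated over the upper doses. No member was called at 0.01, 0.03, 0.1 or 0.3 µg/kg by edgeR's quasi-likelihood test or by DESeq2. Of all genes, none was called at 0.01 µg/kg (0.0%), 0.0344% were higher and 0.0229% lower at 0.03 µg/kg, 0.0229% higher and 0.0% lower at 0.1 µg/kg, and 0.321% higher and 0.143% lower at 0.3 µg/kg. An unadjusted p under 0.05 was found at these doses for 5, 48, 8 and 21 of the 104 members, all of them lower, and for 10.08, 11.69, 5.15 and 10.51% of all genes. At 1 µg/kg 1 member was lower, *Cox7c* (0.515% of all genes), and 1 was higher, *mt-Co3* (1.24%), which rests on 65 reads in 1 mouse. At 3 µg/kg 1 was higher and 8 were lower, against 4.34 and 3.2% of all genes. At 10 µg/kg 3 were higher and 10 lower, against 8.47 and 7.47%. 1 of the 3 higher, *mt-Nd3*, had at most 12 reads in any mouse and passed the read threshold only through this group. Of the 9 members called at 3 µg/kg, 7 were also called at 30 µg/kg, as were 10 of the 13 called at 10 µg/kg. All doses share the 5 vehicle mice. The number called at 3 µg/kg moved to 17 without replicate 2 of that group, to 2 without replicate 5, to 4 or 5 without its replicates 1 or 3, and to 4, 5 or 3 without vehicle replicates 1, 3 or 5. At 10 µg/kg it moved to 6 or 8 without replicates 1 or 5 of that group and to 8 or 5 without vehicle replicates 1 or 5. At 1 µg/kg it moved to 1 without vehicle replicate 1 or 3 or replicates 1, 2 or 3 of that group, to 4 without vehicle replicate 2 and to 0 without vehicle replicate 5.

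Estimates at every dose rest on the same vehicle group. The nuclear-encoded median lay below 0 at all 8 doses, from -0.24 (0.03 µg/kg) to -0.12 (10 µg/kg), in no order by dose. The level of short genes also differed between mice. In the 318 other nuclear genes with under 1000 exon bases and over 5 CPM, the median log2 fold change was -0.12 at 0.03 µg/kg. At 30 µg/kg it was -0.10, and the 916 genes of 1000 to 2000 exon bases also had -0.10. Genes of 2000 to 4000 exon bases and longer ones had -0.05 and -0.05. The nuclear-encoded members, in the same order of length, had medians of -0.21, -0.22, -0.17 and -0.15 at 30 µg/kg. In the vehicle group and at each dose up to 3 µg/kg, 1 mouse had both the lowest short-gene level and the lowest nuclear-encoded sum. These were vehicle replicate 3 (10843 CPM), replicate 1 at 0.01 µg/kg (10001 CPM) and replicate 4 at 0.03 µg/kg (8512 CPM). Likewise, these were replicate 4 at 0.1 µg/kg (8998 CPM) and replicate 2 at 0.3 µg/kg (9415 CPM). At 1 and 3 µg/kg they were replicate 2 (9211 CPM) and replicate 5 (9059 CPM). At 10 and 30 µg/kg the mouse with the lowest short-gene level, replicate 5 in both groups, did not have the lowest sum. With that level as a covariate, an alternative chosen after seeing the data, the nuclear-encoded median at 30 µg/kg was -0.03, and 12 nuclear-encoded members were lower and 6 higher, against 13.6 and 14.5% of all genes. Those higher included *Cox6a1* (1.20), *Cox8a* (0.42), *Ndufv1* (0.35), *Uqcr10* (0.31) and *Ndufa4* (0.20). The fall of the median over all nuclear-encoded members thus depends on this adjustment, while 16 of the 24 calls at 30 µg/kg held under it. The short-gene level itself averaged 0.08 in vehicle mice and -0.04 at 30 µg/kg on the log2 scale. Whether TCDD changed that level was not tested, so an effect of TCDD on it cannot be told apart from other differences between mice.

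**Figure D3:**
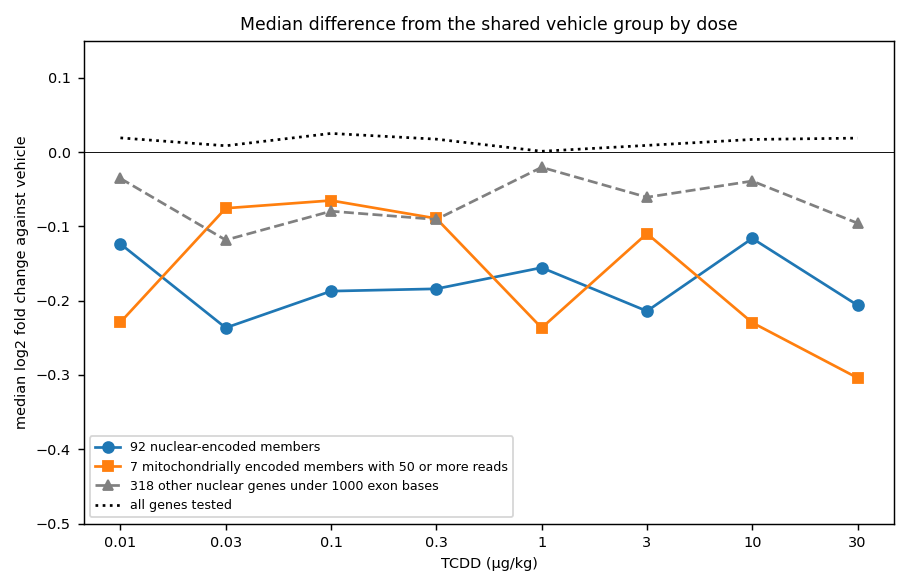
Median log2 fold change against the shared vehicle group at each dose for 92 nuclear-encoded members (circles), 7 mitochondrially encoded members (squares), 318 other nuclear genes under 1000 exon bases (triangles) and all genes tested (dotted). The nuclear-encoded line stays between -0.24 and -0.12 at every dose, and the triangles lie between it and the dotted line.

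*Cox6a1*, a regulatory subunit of complex IV, had the larger rise of the 2 members called higher at 30 µg/kg. Its CPM values in vehicle mice were 110, 114, 117, 135 and 163, those at 10 µg/kg were 217, 223, 228, 231 and 247, and those at 30 µg/kg were 209, 234, 255, 272 and 292. The groups did not overlap at either dose. The log2 fold change was 0.45 at 3 µg/kg (edgeR adjusted p = 0.0274), 0.84 ± 0.13 (SE) at 10 µg/kg (adjusted p = 8.74e-06) and 0.98 ± 0.13 at 30 µg/kg (adjusted p = 2.05e-07). Group means fell short of the vehicle mean of 128 CPM at 0.01 to 0.1 µg/kg, where they were 102 to 113, and then stood at 135, 159 and 175 CPM at 0.3, 1 and 3 µg/kg. The call at 30 µg/kg held with each of the 10 mice left out in turn and under all 8 other settings. *Cox6a1* lies at chr5:115345642-115348981 on the minus strand (GRCm38), and 9.2% of its 50-base windows are shared with a transcribed processed pseudogene on chromosome 19. Of 14 complex IV subunits, 1 was higher and 1 lower at 30 µg/kg, against 15.5 and 14.1% of all genes, and the median was -0.14. With the short-gene covariate 3 were higher and 1 lower, against 14.5 and 13.6% of all genes.

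*Ndufv1*, which holds the flavin site where complex I takes electrons from NADH, also rose. Vehicle mice lay at 158, 160, 161, 164 and 166 CPM, and mice at 30 µg/kg at 177, 198, 199, 201 and 201 CPM, with no overlap. Its log2 fold change was 0.22 at 10 µg/kg (edgeR adjusted p = 0.0409) and 0.27 ± 0.08 (SE) at 30 µg/kg (adjusted p = 0.00659). Its partner in the same module, *Ndufv2*, moved the other way. *Ndufv2* stood at 105, 111, 114, 120 and 138.5 CPM in vehicle mice and at 55.4, 70.1, 71.2, 95.6 and 99.1 CPM at 30 µg/kg. These groups did not overlap, and the log2 fold change was -0.59 ± 0.13 (SE, edgeR adjusted p = 0.000378).

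Among the accessory subunits of complex I, which surround its catalytic core, 9 of 29 were lower at 30 µg/kg, and all 29 estimates were below 0, where 14.1% of all genes were lower. With the short-gene covariate 17 of the 29 estimates were below 0 and 12 above, and the calls for *Ndufb3*, *Ndufb4* and *Ndufa12* were lost. *Ndufa2* stood at 44.4, 44.96, 49.4, 54.1 and 54.8 CPM in vehicle mice and at 21.8, 24.5, 26.9, 28.8 and 31.98 CPM at 30 µg/kg. Every treated mouse lay below every vehicle mouse, and the level fell by 45.9% (log2 fold change -0.89 ± 0.18, edgeR adjusted p = 0.000202). *Ndufa5* stood at 43.8, 44.2, 48.8, 51.2 and 53.6 CPM in vehicle mice and at 23.1, 24.85, 28.9, 32.6 and 36.9 CPM at 30 µg/kg, again without overlap (-0.72 ± 0.15, edgeR adjusted p = 0.000296). *Ndufb6* overlapped by 1 mouse, with 47.02 to 58.7 CPM in vehicle mice and 28.6 to 47.3 CPM at 30 µg/kg (-0.55 ± 0.13, edgeR adjusted p = 0.000799), and 31.6% of its windows are shared with its neighbour *Smim27*. *Ndufs4*, known as the gene behind a form of Leigh syndrome, ranged from 64.9 to 82.15 CPM in vehicle mice and from 38.2 to 66.6 CPM at 30 µg/kg (-0.49 ± 0.12, edgeR adjusted p = 0.00149). *Ndufb10*, *Ndufa8*, *Ndufb3*, *Ndufb4* and *Ndufa12* completed the 9, with log2 fold changes of -0.46, -0.39, -0.37, -0.48 and -0.35. The last 3 calls were lost in 5 or 6 of 10 fits with 1 mouse left out, in each case among them the fits without vehicle replicate 1, vehicle replicate 5 or replicate 2 at 30 µg/kg. Without scaling beyond the library total, the calls for *Ndufs4*, *Ndufb10*, *Ndufa8*, *Ndufb3*, *Ndufb4* and *Ndufa12* were lost. Those for *Ndufa2*, *Ndufa5* and *Ndufb6* held. The core subunits *Ndufs1*, *Ndufs3*, *Ndufs7* and *Ndufs8* had estimates from -0.23 to -0.02 and were not called at 30 µg/kg. Of the 8 assembly factors none was called at 30 µg/kg by edgeR or DESeq2, and 1 had an unadjusted p under 0.05, as 39.37% of all genes did. Their median was -0.08 and their estimates ran from -0.51 to 0.17. The slope over doses was falling for 1 of them, *Ndufaf2*, and other genes share 64.1% of its windows.

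Complex II, the succinate dehydrogenase of the citric acid cycle, is the 1 complex with no mitochondrially encoded subunit. *Sdhd*, 1 of its membrane anchors, stood at 236, 246, 275, 277 and 292 CPM in vehicle mice and at 174.5, 197, 205, 209 and 222 CPM at 30 µg/kg. The groups did not overlap there or at 10 µg/kg, and the log2 fold change was -0.40 ± 0.09 (SE, edgeR adjusted p = 0.00074). *Sdha*, the flavoprotein, stood at 501, 555, 617, 647 and 683 CPM and at 434, 466, 493, 502 and 600 CPM, so 1 treated mouse lay well inside the vehicle range. Its call (-0.27 ± 0.09, edgeR adjusted p = 0.0203) was lost without replicate 2 at 30 µg/kg or without vehicle replicate 2 or 4. It was also lost with the short-gene covariate and in the fit of only the 2 groups compared. Without scaling beyond the library total, the calls for *Sdha* and *Sdhd* were both lost. The other anchor *Sdhc* (-0.24) and the iron-sulfur subunit *Sdhb* (-0.15) were not called, with 164 to 198 CPM against 141 to 172 CPM and 207 to 254 CPM against 188 to 226 CPM.

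In complex III, *Uqcrq*, a small subunit next to cytochrome b, fell most. Its vehicle values were 171, 176, 185, 214.5 and 227 CPM and those at 30 µg/kg were 99.8, 113, 124, 138 and 168 CPM. The groups did not overlap, and the log2 fold change was -0.60 ± 0.14 (SE, edgeR adjusted p = 0.000821), after -0.54 at 3 µg/kg (adjusted p = 0.0103). *Cyc1*, the cytochrome c1 that hands electrons on, stood at 150 to 188.5 CPM in vehicle mice and 135 to 186 CPM at 30 µg/kg and was not called (-0.03 ± 0.11). The core proteins *Uqcrc1* and *Uqcrc2* were at 0.05 and 0.03. *Uqcrfs1*, the Rieske iron-sulfur protein, was lower at 10 µg/kg only among the doses tested (-0.40, edgeR adjusted p = 0.0372), and its estimate at 30 µg/kg was -0.31 (adjusted p = 0.0863).

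*Cox6c*, whose call was lost without scaling beyond the library total, was the complex IV subunit that fell at 30 µg/kg. It ranged from 121 to 166 CPM in vehicle mice and from 58.99 to 121 CPM at 30 µg/kg, where the highest treated mouse reached just above the lowest vehicle mouse (-0.52 ± 0.14 SE, edgeR adjusted p = 0.00384). *Cox5b* was lower at 3 µg/kg (-0.48, edgeR adjusted p = 0.0273) and *Cox7c* at 1 µg/kg (-0.69, edgeR adjusted p = 0.0212), the latter from 44 to 163 reads per mouse. *Cox4i1*, *Cox6b1*, *Cox7a2*, *Cox8a* and *Ndufa4* were not called at 30 µg/kg, with log2 fold changes of -0.08, -0.20, -0.30, 0.21 and -0.01. *Cox7a2l* stood at 35.4 ± 3.75 CPM in the vehicle group and 32.6 ± 2.55 CPM at 30 µg/kg and was not called.

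Of 18 ATP synthase subunits 5 were lower at 30 µg/kg and none was higher, where 14.1% of all genes were lower and 15.5% higher. By DESeq2 5 complex V genes were called, and 6 of 19 had an unadjusted p under 0.05, as 39.37% of all genes did. *Atp5j2* stood at 16.9, 20.65, 20.7, 23.2 and 23.35 CPM in vehicle mice and at 10.0, 10.6, 14.7, 15.9 and 16.2 CPM at 30 µg/kg. It did not overlap there or at 10 µg/kg, and it was lower from 3 µg/kg on (-0.75, -0.68 and -0.64 at the 3 doses, edgeR adjusted p = 0.0142, 0.015 and 0.0124). Its call at 30 µg/kg was lost with the short-gene covariate (-0.37, adjusted p = 0.075) and without scaling (-0.44). *Atp5e*, the ε subunit of the central stalk, stood at 93.0 to 128 CPM and 54.2 to 98.5 CPM (-0.55 ± 0.17, edgeR adjusted p = 0.0103). *Atp5j* (-0.41), *Atp5h* (-0.40) and *Atp5mpl* (-0.35) were also lower, and the groups overlapped for each. The call for *Atp5j* was lost with the covariate (-0.21) and without scaling (-0.20). Without scaling, the calls for *Atp5e*, *Atp5h* and *Atp5mpl* were lost too. The call for *Atp5mpl* was lost in 6 of 10 fits with 1 mouse left out, namely without vehicle replicates 1, 2 or 5 or replicates 1, 2 or 5 at 30 µg/kg, and with the covariate (-0.14). *Atp5b* stood at 1116 to 1428 CPM in vehicle mice and 1337 to 1486 CPM at 30 µg/kg (0.15 ± 0.08, edgeR adjusted p = 0.179). *Atp5a1* stood at 1020 to 1185 CPM and 1086 to 1273 CPM (0.11 ± 0.08, adjusted p = 0.296), and its slope over the 9 dose groups was positive (edgeR adjusted p = 0.0226).

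All 7 countable mitochondrially encoded genes had estimates below 0 at 30 µg/kg, and 3 of them were called, where 14.1% of all genes were lower. Differences between these genes were not tested. *mt-Nd5* stood at 6209, 6624, 7384, 7735 and 8683 CPM in vehicle mice and at 4065, 4682, 4730, 4847 and 6127 CPM at 30 µg/kg. The groups did not overlap at 10 or 30 µg/kg, and it fell by 33.3% (log2 fold change -0.58 ± 0.14, edgeR adjusted p = 0.00148). Its group means were 7208 to 7420 CPM up to 0.1 µg/kg, and then 6454, 5700, 5617, 5341 and 4890 CPM. *mt-Nd6*, which overlaps the end of *mt-Nd5* on the opposite strand, stood at 289, 309, 310, 433 and 564 CPM and at 190, 208, 213, 228 and 290 CPM, with 1 treated mouse just inside the vehicle range (-0.76 ± 0.23, edgeR adjusted p = 0.0119, and not called without vehicle replicate 1). Whether the counting used strand is not given in the sources used here, so reads of *mt-Nd6* and of the transcript opposite to it cannot be told apart. *mt-Cytb* stood at 13721 to 20916 CPM and 11311 to 14836 CPM, which overlapped (-0.34 ± 0.12, edgeR adjusted p = 0.0308). That call was lost without vehicle replicate 3 or 5, without replicate 1 or 2 at 30 µg/kg, and with the short-gene covariate. It was also lost in the fit of only the 2 groups compared. Without scaling beyond the library total, the calls for *mt-Cytb* and *mt-Nd6* were lost and that for *mt-Nd5* held. Without vehicle replicate 2 or 4, 5 of the 12 mitochondrially encoded members were lower.

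*mt-Co1*, *mt-Nd1*, *mt-Nd2* and *mt-Nd4* were not called at any dose, with log2 fold changes at 30 µg/kg of -0.09, -0.11, -0.26 and -0.30. *mt-Co1* ranged from 13916 to 23445 CPM in vehicle mice and from 13035 to 20114 CPM at 30 µg/kg. The spread within the vehicle group was wide, with *mt-Nd1* from 7811 to 13784 CPM there and from 7856 to 10465 CPM at 30 µg/kg. *mt-Nd2* lay at 8379 to 12836 CPM and 7214 to 9458 CPM, and *mt-Nd4* at 3945 to 8147 CPM and 3825 to 5103 CPM. The ribosomal RNAs of the mitochondrial genome, *mt-Rnr1* and *mt-Rnr2*, fell at 30 µg/kg (-0.69 and -0.66, edgeR adjusted p = 0.0186 and 0.0234). Their sum overlapped, with 1545 to 3262 CPM in vehicle mice and 1096 to 1960 CPM at 30 µg/kg. Their median was about as low at 0.01 and 1 µg/kg (-0.57 and -0.63), where neither was called by edgeR, and it followed no order by dose. Among the genes with hardly any reads, *mt-Nd3* was counted almost only at 10 µg/kg, with 12, 7, 5, 0 and 11 reads. The other 8 groups had none but for 3 reads in 1 mouse at 1 µg/kg. It is among the calls at 10 µg/kg, and no fold is given.

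**Figure D4:**
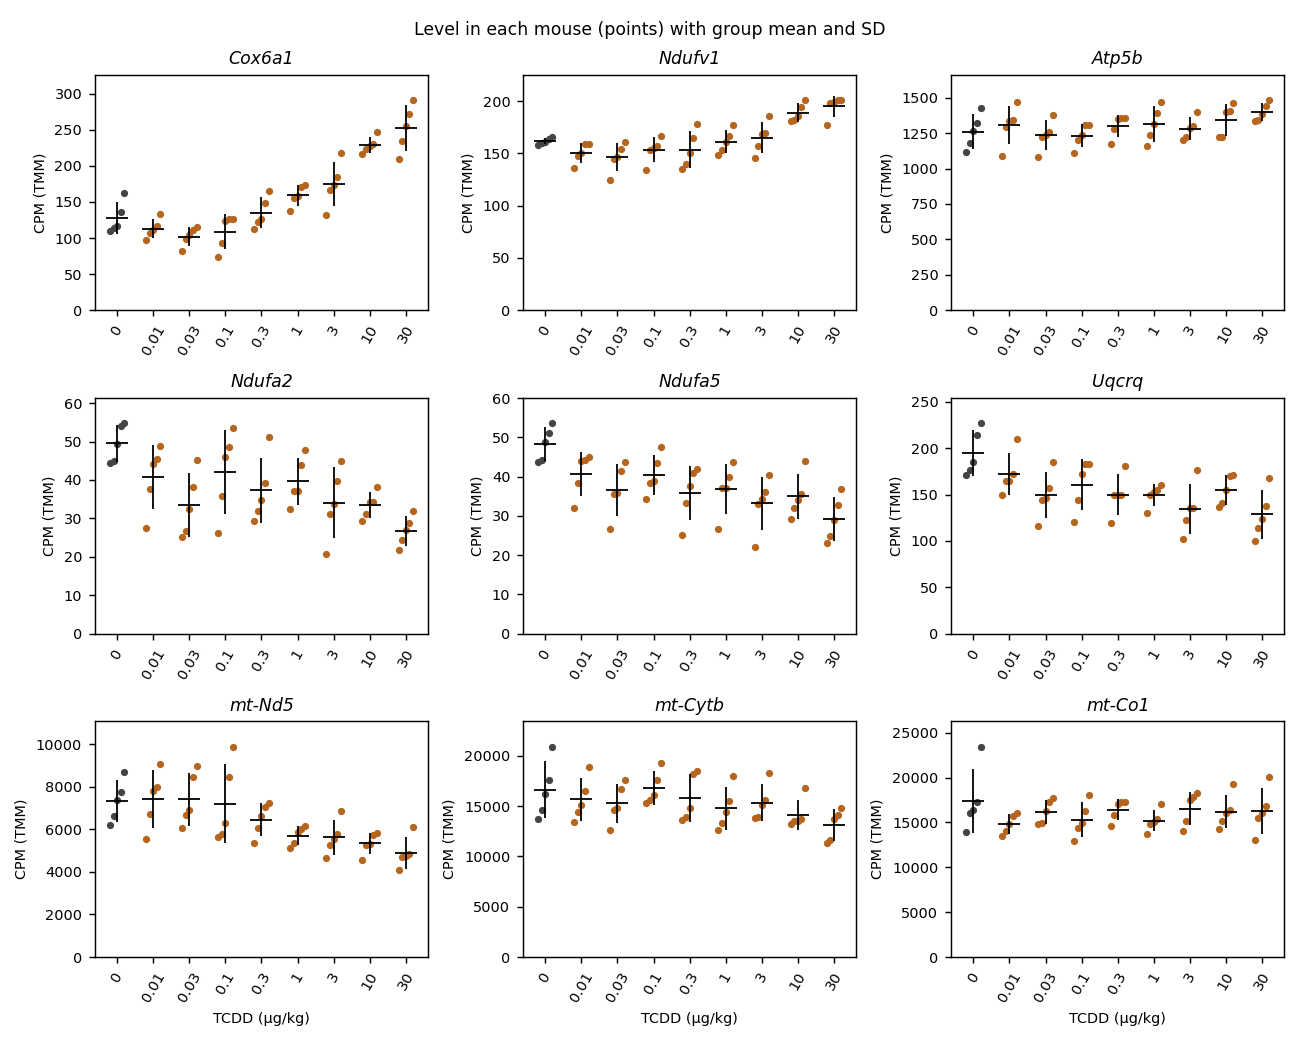
CPM (TMM-scaled) in each of 45 mice for 9 members over the 9 dose groups, with group mean and SD. *Cox6a1* climbs from 128 to 253 CPM, *Ndufa2*, *Ndufa5*, *Uqcrq* and *mt-Nd5* decline, and *Atp5b* and *mt-Co1* stay within overlapping ranges.

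Over all 9 dose groups, the slope per dose step was negative for 26 members and positive for 5 at edgeR's adjusted p under 0.05, where 19.7% of all genes fell and 20.8% rose. This split turned without scaling beyond the library total, to 11 falling and 20 rising. It was 17 falling and 12 rising without the vehicle group, and 23 and 12 with the short-gene covariate. By complex I, II, III, IV and V, 13 of 44, 2 of 4, 3 of 10, 2 of 19 and 5 of 19 genes fell, and so did 1 of the 8 assembly factors. The 5 rising were *Cox6a1* (0.15 per step on the log2 scale), *Ndufv1* (0.04), *Atp5a1* (0.02) and 2 genes with at most 12 reads in any mouse, *mt-Nd3* and *mt-Atp8*. The rising count was 8, 9, 8 and 11 without replicate 3 at 0.01 µg/kg or vehicle replicates 1, 2 or 4, and 3 without replicate 5 at 30 µg/kg. A test of any difference among the groups called 21 members, and 28.8% of all genes.

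**Figure D5:**
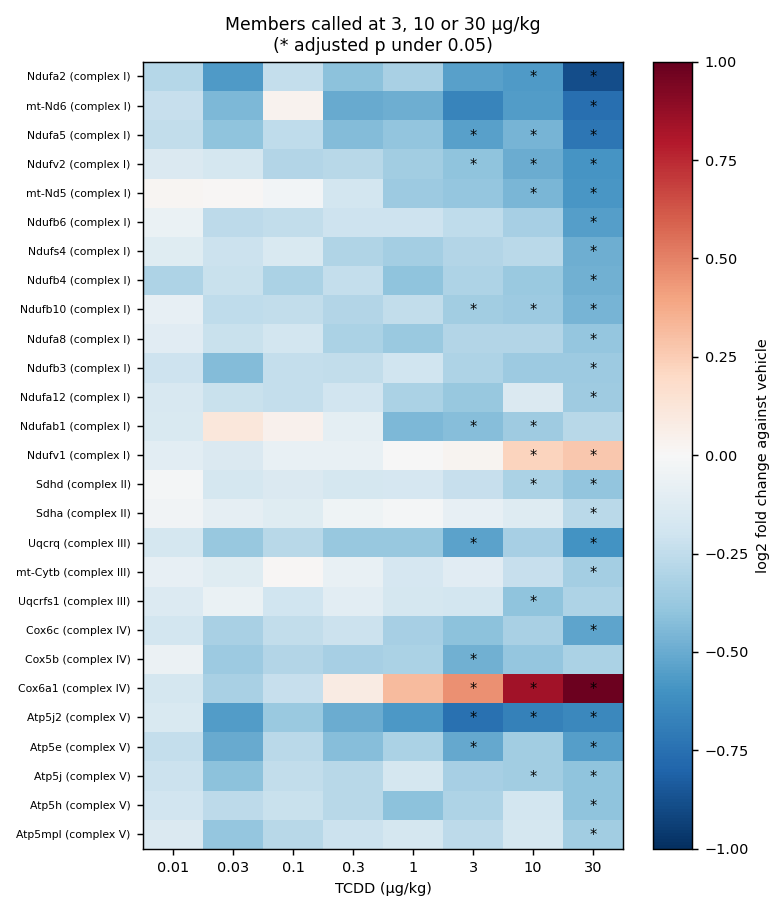
Log2 fold change against vehicle at each dose (colour) for the 27 members with at least 50 reads on average that were called at 3, 10 or 30 µg/kg, with stars where adjusted p is under 0.05. *Cox6a1* and *Ndufv1* are the 2 with red cells at 10 and 30 µg/kg, and the others are blue there.

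Genes that build, feed and regulate the chain were taken from lists of 79 genes in all. At 30 µg/kg 19 were lower and 6 higher, with a median log2 fold change of -0.13, where 14.1% of all genes were lower and 15.5% higher and the median was 0.02. Of 6 further complex I assembly factors 1 was lower, *Timmdc1* (-0.58, edgeR adjusted p = 4.18e-05), and 1 higher, *Acad9* (0.30, adjusted p = 0.0127). Of 14 complex IV assembly genes 3 were lower, *Sco2*, *Cox17* and *Cox20*, and the copper chaperone *Cox19* was higher, from 21.01 ± 2.65 to 33.3 ± 3.70 CPM (0.66, adjusted p = 7.8e-08). Of 4 assembly genes for complex II, *Sdhaf3* (-0.30) and *Sdhaf4* (-0.40) were lower. Of 13 electron carriers and their enzymes 3 were lower, among them *Cycs*, the cytochrome c message (-0.76, edgeR adjusted p = 0.00863), and *Etfdh* (-0.44, adjusted p = 0.000939). *Coq2* of ubiquinone synthesis was higher (0.51, adjusted p = 0.000353).

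Of 5 genes that use or leak the gradient, *Ucp2* rose from 27.04 ± 5.93 to 154 ± 34.4 CPM (2.50, edgeR adjusted p = 2.68e-08) and *Slc25a4* rose (0.61, adjusted p = 0.0182). *Nnt*, the transhydrogenase that uses the proton gradient to make NADPH, fell from 172 ± 8.35 to 103 ± 4.85 CPM (-0.73, adjusted p = 7.09e-10). Of 8 regulators of mitochondrial biogenesis 4 were lower, *Ppargc1a* (-0.77), *Ppargc1b* (-1.09), *Gabpa* (-0.48) and *Yy1* (-0.36), and none was higher. Of 10 genes that copy and transcribe mitochondrial DNA 3 were lower, *Tfam*, *Tfb2m* and *Polg2*, and the polymerase *Polrmt* was higher (0.31, adjusted p = 0.0406). Of 10 general mitochondrial genes 2 were lower, *Vdac2* and *Phb2*, with a median of -0.20, close to the nuclear-encoded members.

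Promoters are shown for *Cox6a1*, the member with the largest call higher at 30 µg/kg, and for *Ndufb6* and *Ndufv2*, which fell and whose upstream bases hold no annotated exon. The sequences are RefSeq's on GRCm38.p6, all on the minus strand, 5′ to 3′, with motif matches in capitals: chr5:115348982-115349208, chr4:40279422-40279671 and chr17:66101560-66101809.
Cox6a1: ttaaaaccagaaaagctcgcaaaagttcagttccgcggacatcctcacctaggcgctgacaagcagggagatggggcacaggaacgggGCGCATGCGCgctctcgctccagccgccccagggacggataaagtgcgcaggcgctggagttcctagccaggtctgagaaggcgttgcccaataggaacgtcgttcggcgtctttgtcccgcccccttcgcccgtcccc
Ndufb6: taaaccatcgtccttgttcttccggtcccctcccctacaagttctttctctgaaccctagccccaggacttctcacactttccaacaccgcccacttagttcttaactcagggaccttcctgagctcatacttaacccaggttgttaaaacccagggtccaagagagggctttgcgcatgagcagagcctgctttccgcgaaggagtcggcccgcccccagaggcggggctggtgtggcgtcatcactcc
Ndufv2: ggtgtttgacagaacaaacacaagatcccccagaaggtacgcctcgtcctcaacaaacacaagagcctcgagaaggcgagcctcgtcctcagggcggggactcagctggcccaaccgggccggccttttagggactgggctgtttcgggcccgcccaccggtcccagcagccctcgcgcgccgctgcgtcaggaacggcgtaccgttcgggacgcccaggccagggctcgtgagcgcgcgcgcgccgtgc
All 250 bases before each start were searched (for *Cox6a1* the 227 up to the first annotated exon base are printed) on both strands for GCGTG (the core of the AhR response element), the NRF1 palindrome (spelled by the capitals in the *Cox6a1* promoter), TCAAGGTCA (ERR), CCGGAAGT (GABPA) and AAGATGGC (YY1). A promoter was found for 72 of the 92 nuclear-encoded members. GCGTG was in 31 of them (43.1%) and in 30.9% of 27025 genes, and it was not in the window of *Cox6a1* or *Ndufv1*. Among members called lower at 30 µg/kg, it was present for *Ndufa5*, *Ndufb3*, *Ndufb4*, *Sdha*, *Sdhd*, *Atp5h*, *Atp5j* and *Atp5j2*. It was absent for *Ndufa8*, *Ndufa12*, *Ndufb6*, *Ndufb10*, *Ndufs4*, *Ndufv2* and *Atp5e*. No promoter was found for *Ndufa2*, *Uqcrq*, *Cox6c* and *Atp5mpl*. The NRF1 palindrome was in 5 (6.9%), *Cox6a1*, *Ndufa11*, *Ndufaf4*, *Atp5g2* and *Atp5k*, and in 0.9% of all genes. TCAAGGTCA, CCGGAAGT and AAGATGGC were in 1, 3 and 1 of the 72, and in 0.4, 3.2 and 1.8% of all genes. A match is a match of letters and was not tested as a site.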

How the data were processed

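RNA from 45 livers was sequenced in single reads of 50 bases. The authors aligned the reads to GRCm38 with TopHat 1.4.1 and Bowtie and counted them on Ensembl genes with HTSeq 0.6.1 in its intersection-nonempty mode. The deposited values are raw counts per gene, without normalization, and exclude multi-mapped reads. Of the uniquely aligned reads, 10.7 to 18.4% fell outside genes or could not be assigned to 1 gene, and these rows were left out of library sizes. Strand use in the counting is not given in the sources used here. Groups come from the sample labels.

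Symbols and positions were taken from GENCODE vM21 (GRCm38), a later annotation than the one counted on, which matched 37607 of 39179 identifiers. Counts were scaled by TMM and fitted with edgeR 4.0.16 in R 4.3.3, all 45 mice in 1 quasi-likelihood fit with 1 coefficient per group, over 17464 genes with more than 4 reads in any mouse. P-values were adjusted by Benjamini-Hochberg within each dose, and a call is an adjusted p under 0.05. Slopes were fitted over dose rank. CPM values are TMM-scaled, errors of levels are SD and errors of log2 fold changes are SE. P-values come from tests of a group difference or slope against the spread between mice. Windows of 50 bases were compared with all annotated transcripts. The members and lists were chosen with earlier results of these data known. Named in full are mitochondrially encoded members, tissue isoforms, complex II, *Cyc1*, and the most changed members of each complex, at most 5 in each direction. Genes outside the members are named from gene lists. Alternatives used DESeq2 1.42.0, other scalings, other filters, single pairs of groups and each mouse left out. The fit was tested on simulated data. Figures were drawn with matplotlib 3.10.9. Counting error is smallest for genes with many reads, and values of genes with under 50 reads per mouse are least precise. Of the marker symbols, *Tf* of the hepatocyte list, 3 adipose markers and *Pet117* were not among the genes tested. Skeletal muscle markers summed to 0 to 0.0636 CPM in vehicle mice and 1.62 to 3.92 CPM at 30 µg/kg, where *Acta1* was called higher. At 0.01 and 0.1 µg/kg their sums reached 5.83 and 8.88 CPM, with group medians of 0.0 and 0.019 CPM. The adipose marker tested reached 0.123 CPM in vehicle mice and 0.25 CPM at 0.01 µg/kg. Endothelial markers summed to 96.2 to 125 CPM in vehicle mice (113 to 190 CPM at 30 µg/kg) and bile duct markers to 3.90 to 5.76 CPM (4.46 to 4.96 CPM). One item is not reported here.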

Additional observations from a re-analysis of the deposited data

Results flagged for a closer look

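In groups of 5 mice, 153 sets of values were examined for 1 mouse far from the other 4, and 13 were found. Chance alone gives about 1 in 20. At 30 µg/kg 1 mouse stood at 177 CPM of *Ndufv1* where the others lay between 198 and 201 CPM, nearer to the vehicle mice. At 10 µg/kg 1 mouse had 116 CPM of *Ndufb10* (others 98.5 to 101 CPM) and 1 had 16790 CPM of *mt-Cytb* (others 13255 to 13704 CPM). In the vehicle group 1 mouse had 175.4 CPM of *Cox7a2* (others 138 to 147 CPM) and 1 had 1185 CPM of *Atp5a1* (others 1020 to 1063 CPM).

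The nuclear-encoded sum was 8512 CPM in replicate 4 at 0.03 µg/kg (others 10463 to 10597 CPM) and 8998 CPM in replicate 4 at 0.1 µg/kg (others 10571 to 10909 CPM). The same 2 libraries had the most uniquely aligned reads outside genes in their groups, 14.511 and 18.424%. In replicate 2 at 3 µg/kg, the mouse with the highest short-gene level of its group, that share was lowest, 10.702%. Reads on genes stood apart in 1 mouse each at 0.03 µg/kg (23943553), 0.1 µg/kg (56509899) and 1 µg/kg (34079983), where more reads give the smaller counting error.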

How the results depend on the processing

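A fold of at least 2 left 1, 0, 1 and 0 members called at 1, 3, 10 and 30 µg/kg, and 0 in each direction of both genomes at 30 µg/kg. Without scaling beyond the library total, calls numbered 4 at 3 µg/kg and 15 at 30 µg/kg, comprising 9 nuclear-encoded higher, 5 lower, 1 mitochondrially encoded lower, medians of 0.0026 and -0.0266, and 20 rising and 11 falling slopes. With the short-gene level as a covariate, chosen after seeing the data, 9 were called at 1 µg/kg, 6 nuclear-encoded members were higher and 12 lower at 30 µg/kg (median -0.0309), and 12 slopes rose. DESeq2 called 5, filterByExpr 4 and the fit of 2 groups 5 at 1 µg/kg, and the fit of 2 groups called 21 at 10 µg/kg. Slopes without the vehicle group rose in 12 and fell in 17 members. The cause of these differences was not tested. With 1 mouse left out, calls ranged from 0 to 4 at 1 µg/kg, 2 to 17 at 3, 5 to 16 at 10 and 18 to 31 at 30 µg/kg. Nuclear-encoded members lower at 30 µg/kg ranged from 14 to 25, mitochondrially encoded ones from 2 to 5, the median over 12 mitochondrially encoded members (main value -0.19) from -0.3458 (without vehicle replicate 2) to -0.1385, and rising slopes from 3 to 11. Of the 24 members called at 30 µg/kg, 16 lost the call without scaling, 8 with the covariate, and 2 with each of the other filters and the fit of 2 groups. None lost it under DESeq2, its size factors or library sizes without the mitochondrial genome. No paired analysis was possible because the labels give no replicate numbers, and those used here only follow the order of the samples. Members under 50 reads per mouse are limited by depth.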
